A study of Mus musculus with 33 samples.

Results

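The 10 genes described here encode enzymes of serine synthesis, folate one-carbon metabolism, glycine cleavage and threonine breakdown: Phgdh, Shmt1, Shmt2, Mthfd1, Mthfd1l, Mthfd2, Gldc, Amt, Gcsh and Tdh. They were taken by symbol from the deposited expression table, where each matched a row, 10 of 37973 genes in all. Their level was followed while mouse embryonic fibroblasts (MEFs) were reprogrammed towards pluripotency with or without added Dppa2 and Dppa4, a pair of DNA-binding proteins of pluripotent cells and the germline.

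The cells were primary MEFs from embryos of 14 to 15 days post coitum, of genotype Col1a1-OSKM+/-; Rosa26-rtTA+/-; Oct4-GFP+/-. Doxycycline at 1 µg/ml turned on the factors Oct4, Sox2, Klf4 and Myc (OSKM), in medium with 15% serum and ESGRO, a preparation of leukaemia inhibitory factor. One arm overexpressed Dppa2 and Dppa4 after lentiviral transduction, and the other is labelled control overexpression with no vector named. On days 2, 4, 8, 11 and 14 cells were sorted by Thy1, a fibroblast surface protein, by SSEA1, a sugar epitope gained early in reprogramming, and by green fluorescent protein from the Oct4 locus (GFP+). The strain labels give crosses on B6 and 129S4 backgrounds. Both arms thus carried the same OSKM, rtTA and reporter alleles and received doxycycline. A further Dppa2/4 and control pair of rtTA-MEF libraries came from cells of genotype Rosa26-rtTA+/-; Oct4-GFP+/-, without the OSKM allele. Its titles give day 2, whereas its descriptions give another day and name OSKM-rtTA cells. Each arm, day and gate had 1 library, which gave 17 Dppa2/4 and 13 control OSKM libraries. Dppa2/4 libraries with no control partner were Thy1+SSEA1+ on days 2 and 4, GFP+ on day 8 and Thy1-SSEA1- on day 14. The arms were compared without them, through 13 pairs of the same day and gate. The labels do not say whether libraries came from separate cultures or embryos, so p-values measure the spread between these pairs.

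Serine is made from a glycolytic intermediate by a path whose first enzyme is Phgdh, and serine hydroxymethyltransferases split it into glycine while loading a carbon onto folate. The Mthfd enzymes then pass that carbon between folate forms, in the cytosol and in mitochondria, for purine, thymidylate and methionine synthesis. Glycine feeds the same pool through the glycine cleavage system, and mouse pluripotent cells also draw glycine from threonine through Tdh and are known to depend on threonine in culture. Expression was given as FPKM, fragment counts scaled to transcript length and library depth, so levels of different genes may be set side by side.

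The depth implied by the smallest FPKM steps was about 22400000 to 42700000 fragments in OSKM libraries, and about 13500000 in the Dppa2/4 and 17000000 in the control rtTA-MEF library. Dppa2 was at 81.8 to 182 FPKM in Dppa2/4 Thy1-SSEA1- libraries and 0.256 to 0.916 FPKM in control ones, whereas in GFP+ cells the arms overlapped, at 49.3 to 61.5 FPKM with Dppa2/4 and 45.4 to 66.1 FPKM in control. The library labelled Dppa2/4 day 4 Thy1+SSEA1- had 0.354 FPKM of Dppa2 and went against its label. Several results that rest on it are therefore also given without its day and gate. The control library titled day 11 GFP+ has a description that names another gate, was used as titled, and was also left out in turn. The summed level of 8 pluripotency markers was 1.25 to 197 FPKM in the gates without SSEA1, 259 to 1859 FPKM in Thy1-SSEA1+ cells and 3022 to 5578 FPKM in GFP+ cells. The summed level of 8 fibroblast markers was 663 to 6192 FPKM, 63.1 to 410 FPKM and 28.9 to 81.1 FPKM for these same 3 classes of gate. Immune cell markers summed to at most 112 FPKM, with 2 to 5 of 6 below 1 FPKM. These are bulk samples, in which fewer cells of a type and less RNA per cell cannot be told apart.

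The 3 members of the glycine cleavage system are Gldc, the decarboxylase or P-protein (chr19:30098447-30175429), Amt, the aminomethyltransferase or T-protein (chr9:108296853-108302302), and Gcsh, the lipoate-bearing H-protein (chr8:116981810-116993537), all in mm10. The remaining protein of the system, the L-protein Dld, is not a member. The members' promoters are shown because Gldc and Amt moved together across the 30 OSKM libraries (Pearson r of 0.954 on log2(FPKM + 1)), and Gcsh followed Gldc (0.563) and Amt (0.427) less closely. Each runs from 250 bases before to 50 bases after the RefSeq gene start in GRCm38.p6, read 5′ to 3′ on the gene's strand, with CG dinucleotides in capitals. Gldc spans chr19:30175392-30175691 on the minus strand, Amt chr9:108296655-108296954 on the plus strand and Gcsh chr8:116993449-116993748 on the minus strand.
Gldc: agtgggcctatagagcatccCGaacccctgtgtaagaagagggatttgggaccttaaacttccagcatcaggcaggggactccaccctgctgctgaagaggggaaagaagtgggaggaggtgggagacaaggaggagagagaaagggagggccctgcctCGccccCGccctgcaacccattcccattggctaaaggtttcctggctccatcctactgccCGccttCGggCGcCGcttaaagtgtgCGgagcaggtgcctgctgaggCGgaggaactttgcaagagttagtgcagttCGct
Amt: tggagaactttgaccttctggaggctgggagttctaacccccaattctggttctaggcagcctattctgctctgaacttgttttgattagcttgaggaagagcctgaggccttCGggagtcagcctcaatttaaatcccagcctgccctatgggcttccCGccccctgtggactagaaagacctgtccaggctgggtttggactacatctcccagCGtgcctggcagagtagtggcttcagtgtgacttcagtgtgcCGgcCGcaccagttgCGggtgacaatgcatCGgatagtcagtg
Gcsh: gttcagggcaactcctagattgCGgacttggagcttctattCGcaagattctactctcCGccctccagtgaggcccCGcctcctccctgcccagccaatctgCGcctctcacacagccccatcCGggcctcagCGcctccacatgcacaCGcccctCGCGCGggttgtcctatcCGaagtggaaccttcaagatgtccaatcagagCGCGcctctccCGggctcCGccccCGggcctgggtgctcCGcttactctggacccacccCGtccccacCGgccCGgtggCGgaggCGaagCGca
The Gcsh window held 24 CG dinucleotides, the Gldc window 10 and the Amt window 7, against a median of 7 over 32851 promoters. The other members with an entry, Phgdh, Shmt1, Shmt2, Mthfd1, Mthfd1l and Mthfd2, held 11, 17, 13, 16, 8 and 15, and Tdh had none. Of 3 motifs searched on both strands in the 9 windows, none was found: the E-box CACGTG, present in 7.15% of all promoters, the C/EBP-ATF composite element TGATGCAA, in 0.895%, and the octamer ATGCAAAT, in 1.74%.

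Gldc, which releases carbon dioxide from glycine, was the member with the clearest order across gates. Its level in Dppa2/4 libraries was 0.969 to 7.65 FPKM in Thy1+SSEA1- cells, 1.42 to 6.40 FPKM in Thy1-SSEA1- cells, 8.96 to 16.3 FPKM in Thy1-SSEA1+ cells and 45.9 to 65.3 FPKM in GFP+ cells. In control libraries it was 0.375 to 0.933, 0.584 to 3.26, 28.0 to 41.7 and 79.5 to 92.9 FPKM in the same 4 gates. No Thy1-SSEA1+ library overlapped a library without SSEA1 of its own arm, and no GFP+ library overlapped a Thy1-SSEA1+ library, while the 2 gates without SSEA1 overlapped. The pseudogene Rpl31-ps20 lies within Gldc on the opposite strand, at a median of 6.42 FPKM, and its part in the Gldc values was not tested. Amt, which takes the methylene group from glycine to folate, had the same order. It was at 3.39 to 19.4, 3.95 to 20.0, 24.6 to 36.1 and 76.3 to 93.8 FPKM in those gates with Dppa2/4, against 0.729 to 4.16, 1.42 to 5.62, 40.2 to 55.8 and 106 to 110 FPKM in control. Gcsh, which carries the glycine remnant between the other subunits, was high in every gate, at 40.3 to 204, 47.8 to 105, 49.3 to 109 and 101 to 176 FPKM with Dppa2/4 and 46.1 to 103, 69.7 to 94.0, 87.7 to 164 and 132 to 174 FPKM in control. Its gates overlapped, and without SSEA1 its transcript was at 40.3 FPKM or more where Gldc was at 7.65 FPKM and Amt at 20.0 FPKM or less.

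Tdh, the mitochondrial threonine dehydrogenase (chr14:63492347-63509092), ran from near 0 to a high level. It was at 18.0, 35.5 and 67.2 FPKM in Dppa2/4 GFP+ libraries, against 33.6 and 88.8 FPKM in control ones. In Thy1-SSEA1+ cells it was at 4.27, 4.37 and 7.17 FPKM with Dppa2/4, against 11.7, 26.2 and 44.4 FPKM in control, and the arms did not overlap there. In Thy1-SSEA1- cells it was at 0.000306 to 1.18 FPKM with Dppa2/4, against 4.6e-06 to 9.82 FPKM in control. In the rtTA-MEF pair it was 0.0962 FPKM with Dppa2/4 and 0.226 FPKM in control. The table holds a second row named Tdh.1, with no entry in the annotation used, at 113 to 535 FPKM in GFP+ cells. In Thy1-SSEA1- cells Tdh.1 was at 0.136 to 11.5 FPKM with Dppa2/4, against 0.159 to 56.8 FPKM in control. How fragments were split between both rows is not given in the sources used here, so the absolute level of Tdh is uncertain. The antisense gene Gm17232 overlaps Tdh and reached 4.83 FPKM.

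Phgdh, the first enzyme of serine synthesis (chr3:98313170-98339990), and Shmt2, the mitochondrial serine hydroxymethyltransferase (chr10:127517123-127522444), were expressed in every library (Phgdh has 1 named pseudogene), and each had its highest value in the Dppa2/4 rtTA-MEF library. Phgdh reached 295 FPKM in the Dppa2/4 rtTA-MEF library and 210 FPKM in the control one, against 64.7 to 109 FPKM across GFP+ libraries of both arms. Shmt2 was at 160 FPKM with Dppa2/4 and 78.9 FPKM in control in that pair, against 39.1 to 88.4 FPKM in GFP+ cells. Shmt2 overlaps Ndufa4l2 on the opposite strand, which reached 96.4 FPKM, and the strand setting of the counting is not given in the sources used here.

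The cytosolic enzymes had another profile. Shmt1, the cytosolic serine hydroxymethyltransferase (chr11:60788104-60811718), was at 27.1 to 93.9 FPKM with Dppa2/4 and 116 to 210 FPKM in control in Thy1-SSEA1+ cells, and at 5.91 to 42.8 FPKM with Dppa2/4 and 22.9 to 85.7 FPKM in control over the gates without SSEA1. Mthfd1, the trifunctional cytosolic folate enzyme (chr12:76255298-76319803), was at 90.3 to 153 FPKM with Dppa2/4 and 169 to 257 FPKM in control in Thy1-SSEA1+ cells, and 17.9 to 61.0 FPKM with Dppa2/4 and 27.9 to 93.2 FPKM in control without SSEA1. Both thus stood higher in Thy1-SSEA1+ cells than without SSEA1 in each arm, without overlap except for Shmt1 in the Dppa2/4 arm. The mitochondrial pair differed: Mthfd2, the dehydrogenase and cyclohydrolase (chr6:83305691-83325908), was at 104 FPKM with Dppa2/4 and 68.4 FPKM in control in the rtTA-MEF pair and at 65.1 to 84.9 FPKM in GFP+ cells, and reached 73.1 FPKM with Dppa2/4 and 43.6 FPKM in control in day 2 Thy1+SSEA1- cells. Mthfd1l, the mitochondrial formate-releasing synthetase (chr10:3973118-4167081), had the smallest ratio of highest to lowest value of the 10, at 11.3 to 46.3 FPKM over OSKM libraries. The plot of levels by gate and arm shows the 10 profiles side by side.

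**Figure D1:**
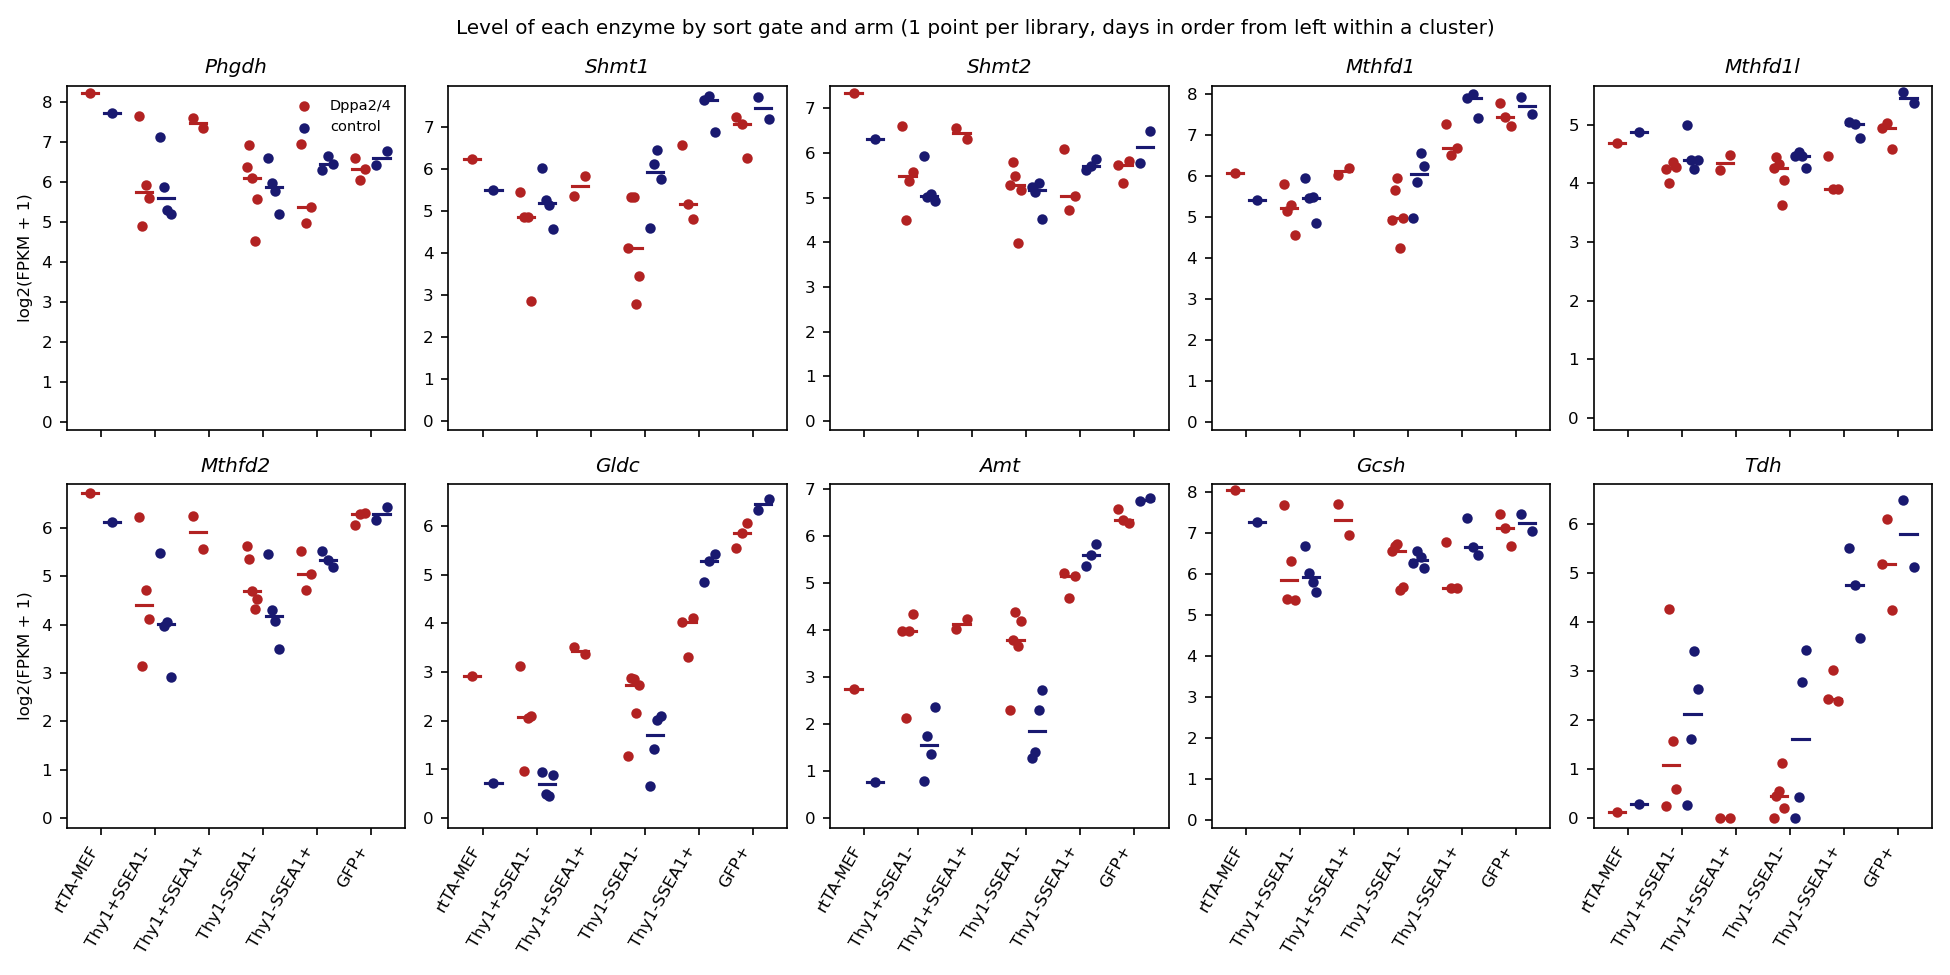
Level of each of the 10 genes as log2(FPKM + 1), with 1 point per library, grouped by gate, Dppa2/4 in red to the left of control in dark blue, and a bar at the median of each group. Gldc, Amt and Tdh climb from the gates without SSEA1 to GFP+ cells, whereas Gcsh is at 40.3 FPKM or more in every library. Phgdh and Shmt2 are expressed in every library, with lowest values of 21.9 and 14.8 FPKM in Thy1-SSEA1- cells.

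Over the 30 OSKM libraries the members fell into sets by their correlation, given as a description of libraries that share arms, days and gates. Gldc and Amt had the highest Pearson r, followed by Mthfd1 with Shmt1 at 0.93 and Shmt2 with Phgdh at 0.92. The lowest value, -0.18, was that of Tdh with Phgdh. Of 17103 genes, those most like Gldc were Slc35f2 (0.971), Camsap3 (0.967), Nr0b1 (0.965), Ly6g6e (0.964) and Utf1 (0.961), and those most like Tdh were its second row Tdh.1 (0.970), Sall1 (0.955), Ctbp2 (0.944), Gnpda1 (0.932) and Zfp418 (0.930).

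To see which members differ between sorted fractions, gates of the same arm and day were compared on log2(FPKM + 1) with limma, taking a Benjamini-Hochberg adjusted p under 0.05 as the threshold. The 3 comparisons share libraries with each other. In Thy1-SSEA1- against Thy1+SSEA1- cells, over 7 pairs, 0.0259% of 15473 genes passed, 0.0129% in each direction, and none of the members did. Of the 10, 1, Tdh, was at an unadjusted p under 0.05, as were 1611 of the 15473 genes. Tdh differed by -1.08 (SE 0.42, lower in 7 of 7 pairs, adjusted p = 0.419). The Dppa2/4 day 4 pair had 18.1 FPKM in its Thy1+SSEA1- library, which went against its label, against 0.360 FPKM in Thy1-SSEA1- cells. With both Tdh rows summed the difference was -1.13 (SE 0.68, adjusted p = 0.646). Tdh.1 was mixed. On control day 4 it was at 0.960 FPKM in Thy1-SSEA1- and 5.04 FPKM in Thy1+SSEA1- cells, and on control day 8 at 35.6 and 33.1 FPKM. The other 9 members differed by -0.09 to 0.53.

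In Thy1-SSEA1+ against Thy1-SSEA1- cells, over 5 pairs, 21.9% of 15249 genes passed, 9.55% as higher, and 6 of the 10 members were among the higher ones: Tdh (2.00, SE 0.21, adjusted p = 0.00474), Gldc (1.94, SE 0.36, 0.0137), Amt (1.74, SE 0.40, 0.0251), Mthfd1 (1.68, SE 0.17, 0.00464), Shmt1 (1.62, SE 0.20, 0.00583) and Mthfd2 (1.00, SE 0.24, 0.0290), each higher in 5 of 5 pairs. The median of the members was 1.31, against 0.01 over all genes tested. Phgdh (0.61), Shmt2 (0.53), Mthfd1l (0.32) and Gcsh (0.31) did not pass, but without the Dppa2/4 day 14 pair Phgdh (0.82, adjusted p = 0.0400) and Shmt2 (0.70, adjusted p = 0.0414) did. Without the control day 8 or the control day 11 pair Amt (adjusted p = 0.0616 and 0.0757) and Mthfd2 (0.0856 and 0.0775) were no longer past the threshold, nor was Mthfd2 without the Dppa2/4 day 8 pair (0.0672). Over all alternatives adjusted p ran from 0.0134 to 0.0757 for Amt and from 0.0239 to 0.0856 for Mthfd2. Of the fixed markers, 7 of 8 pluripotency and 8 of 8 proliferation genes were also higher and 8 of 8 fibroblast genes lower in Thy1-SSEA1+ cells, and their part in the members' values was not tested.

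In GFP+ against Thy1-SSEA1+ cells, over 5 pairs, 45.4% of 15347 genes passed, 19.5% as higher and 25.9% as lower, and 7 members rose. Tdh rose by 2.17 (SE 0.26, adjusted p = 0.00185), Gldc by 1.64 (SE 0.22, 0.00271), Amt by 1.25 (SE 0.11, 0.00111), Mthfd2 by 1.09 (SE 0.16, 0.00324), Gcsh by 0.91 (SE 0.14, 0.00371), Shmt1 by 0.86 (SE 0.29, 0.0493) and Mthfd1l by 0.69 (SE 0.11, 0.00494). Gldc, Amt and Gcsh thus all rose at this step, whereas Dld, the L-protein of glycine cleavage, was lower in 5 of 5 pairs, at -0.32 (SE 0.08, adjusted p = 0.0175). Mthfd1 (0.40, adjusted p = 0.0769), Shmt2 (0.34) and Phgdh (0.35) did not pass. The median of the members was 0.89, against -0.06 over all genes, a background that quantile normalization moved to 0.06, with 2988 genes higher and 3975 lower as deposited and 3614 and 3030 after it. Shmt1 missed the threshold without any 1 of 4 of the 5 pairs (all but control day 11), at adjusted p = 0.0563 to 0.133, and in 7 of 10 alternatives in all, with a range of 0.0276 to 0.133. Without the control day 11 pair, Mthfd1 passed (0.52, adjusted p = 0.0370), within a range over its alternatives of 0.0370 to 0.199, and without the Dppa2/4 day 8 pair Shmt2 passed (0.52, adjusted p = 0.0351). Pluripotency markers were higher for 8 of 8 genes and proliferation markers for 5 of 8, and their part was not tested.

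**Figure D2:**
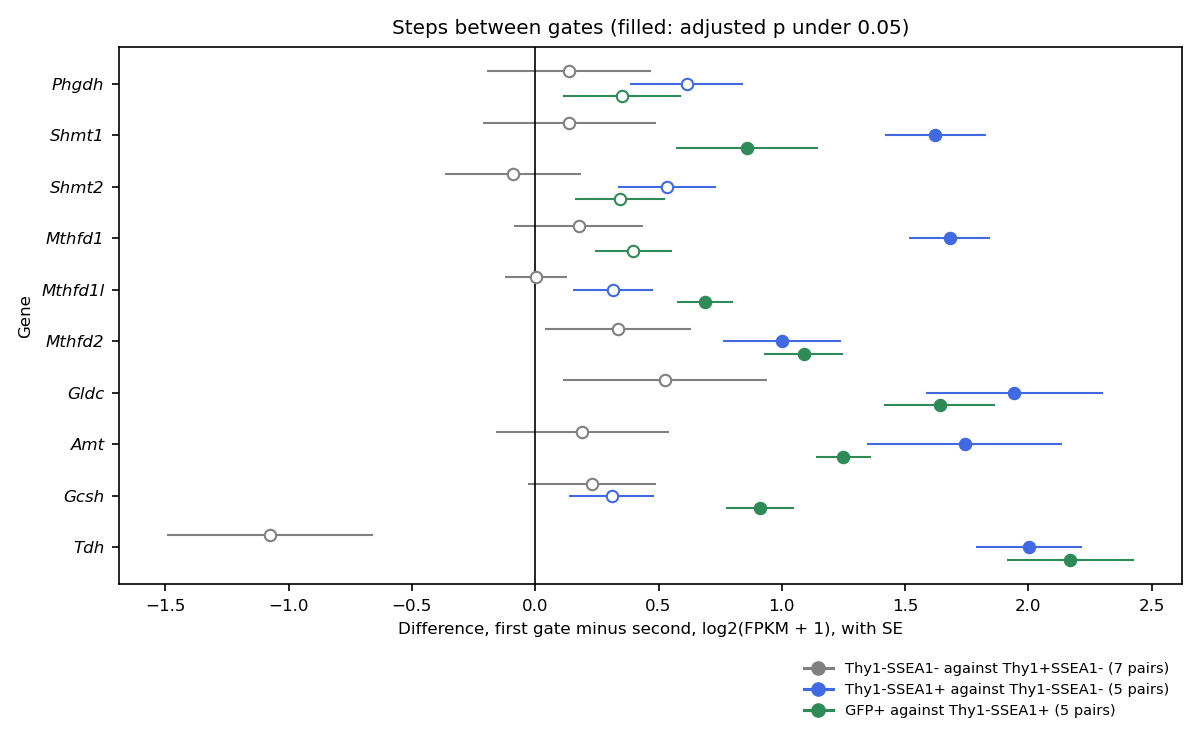
Difference between gates for each gene on the log2(FPKM + 1) scale, first gate minus second, with standard errors, filled where the adjusted p was under 0.05. Steps into Thy1-SSEA1+ cells (blue) and into GFP+ cells (green) lie to the right of 0 for all 10 genes, and the largest GFP+ step is that of Tdh at 2.17.

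Shmt1 and Shmt2 catalyse the same reaction in different compartments, and their balance was without overlap between arms in Thy1-SSEA1+ cells alone. The level of Shmt1 minus that of Shmt2 on the log2(FPKM + 1) scale was -0.22, 0.44 and 0.47 in Dppa2/4 Thy1-SSEA1+ libraries, against 1.02, 2.02 and 2.02 in control ones, without overlap. In Thy1-SSEA1- cells it ranged from -1.72 to -0.15 with Dppa2/4, against -0.62 to 1.24 in control. In Thy1+SSEA1- cells it ranged from -2.72 to 0.37 with Dppa2/4, a range that held the control values of -0.35 to 0.25. In GFP+ cells the arms overlapped, at 0.43 to 1.73 with Dppa2/4 and 0.69 to 1.94 in control. These balances are descriptive and were given no test.

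The main question of the design was how Dppa2/4 overexpression altered expression during reprogramming. In Dppa2/4 against control over the 13 pairs of day and gate, 3933 of 16835 genes passed (23.4%, with 15.6% higher and 7.75% lower), and under quantile normalization the split of 2629 higher and 1304 lower became 1971 and 2107. Of the members, 3 fell with Dppa2/4, 0 rose and 7 did not pass, with a median of -0.17 against 0.03 over all genes tested. Among those 7, Mthfd2 differed by 0.28 (adjusted p = 0.228, higher in 8 of 13 pairs), Shmt2 by -0.08 (0.766), Gcsh by -0.17 (0.425) and Phgdh by -0.16 (0.612).

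Shmt1 was lower with Dppa2/4 in 13 of 13 pairs, by -1.20 (SE 0.22, adjusted p = 0.00226), with averages of 43.7 ± 36.3 FPKM with Dppa2/4 and 97.2 ± 70.9 FPKM in control (SD, n = 13 libraries each, over all days and gates). The gap ran from -0.28 in day 8 Thy1+SSEA1- cells, at 27.9 FPKM with Dppa2/4 and 34.1 FPKM in control, to -2.97 in day 11 Thy1-SSEA1- cells, at 5.91 and 53.0 FPKM in the same order. Shmt1 shares a short stretch with Smcr8 on the opposite strand, which was at a median of 7.94 FPKM. Mthfd1 fell by 0.57 (SE 0.15, adjusted p = 0.0142) and was lower in 13 of 13 pairs. Mthfd1l fell by 0.46 (SE 0.10, adjusted p = 0.00543) and was lower in 12 of 13 pairs, with 19.5 FPKM with Dppa2/4 and 17.9 FPKM in control in day 8 Thy1+SSEA1- cells as the exception. The lower pairs of all 3 genes include day 4 Thy1+SSEA1-, whose Dppa2/4 library had only 0.354 FPKM of Dppa2. Shmt1, Mthfd1 and Mthfd1l differed there by -0.41, -0.30 and -0.38. These 3 calls held in every alternative tried except the fit that ignored which day and gate libraries came from, where adjusted p was 0.144, 0.525 and 0.0898 for Shmt1, Mthfd1 and Mthfd1l. The lowest adjusted p over the alternatives was 0.00197, 0.0132 and 0.00449 for these genes in the same order.

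The Tdh call changed without the library that went against its label, and under other settings. Over all pairs Tdh differed by -1.01 (SE 0.38, adjusted p = 0.0670, lower in 10 of 13). The library labelled Dppa2/4 day 4 Thy1+SSEA1- had 18.1 FPKM against 2.04 FPKM in control. The other pairs not lower were Thy1-SSEA1- days 2 and 4, near equal between arms and below 1 FPKM. They were at 0.000306 and 0.360 FPKM with Dppa2/4, against 4.6e-06 and 0.355 FPKM in control. Without the day 4 Thy1+SSEA1- pair Tdh fell by 1.31 (adjusted p = 0.00487), and under quantile normalization, with all pairs, by 1.10 (adjusted p = 0.0441). In an alternative added after seeing the data, which kept days 8 to 14 only, it fell by 1.75 (SE 0.24, adjusted p = 0.00230). Its adjusted p over the alternatives ran from 0.00230 to 0.531. With both Tdh rows summed, also an added alternative, the difference was -1.42 (SE 0.49, adjusted p = 0.0504). From day 8 on it was lower with Dppa2/4 in every gate and day, for example 0.502 FPKM against 5.16 FPKM in control in day 14 Thy1+SSEA1- cells, and 4.37 FPKM against 44.4 FPKM in control in day 8 Thy1-SSEA1+ cells.

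**Figure D3:**
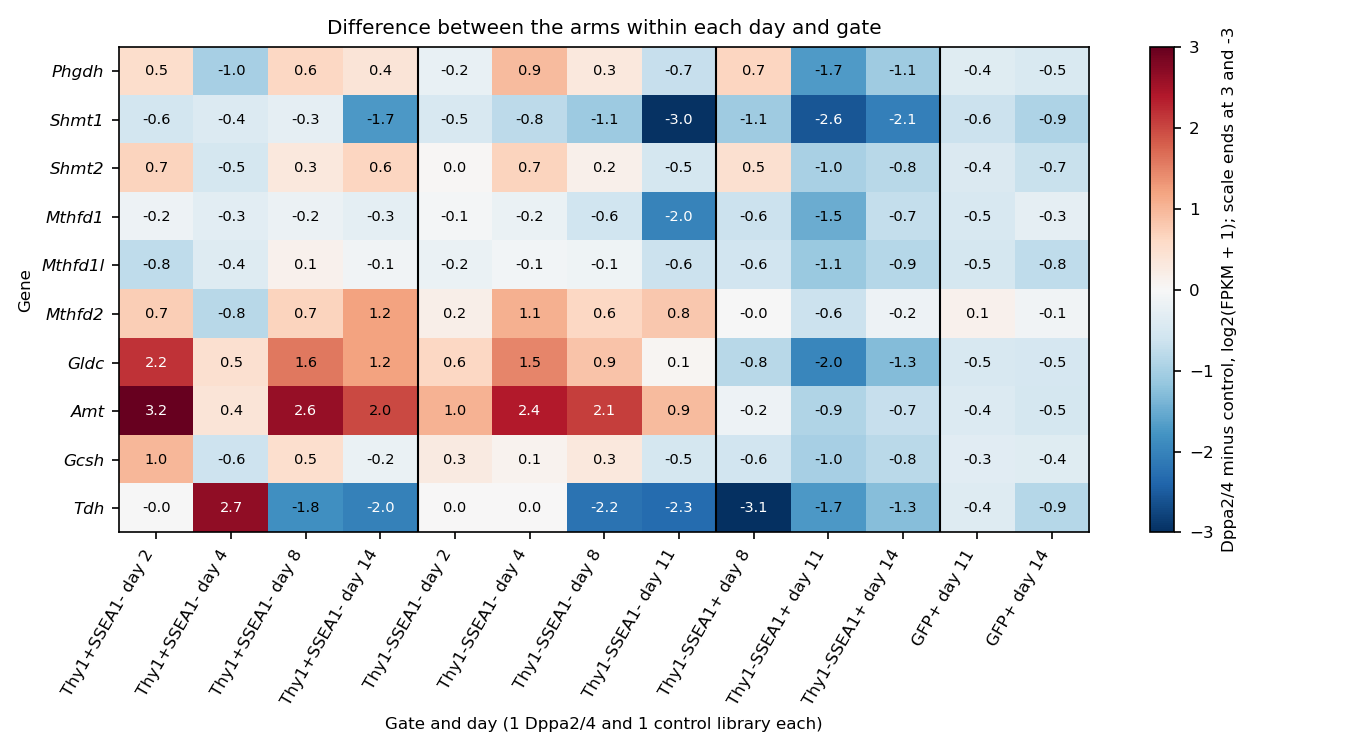
Dppa2/4 minus control on the log2(FPKM + 1) scale for each gene in each of the 13 pairs of gate and day, with 1 library per arm in each cell. The Shmt1 and Mthfd1 rows are negative throughout, whereas the Gldc and Amt rows are positive in the 8 pairs without SSEA1 and negative in the 5 pairs of Thy1-SSEA1+ and GFP+ cells.

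The Dppa2/4 differences of Gldc and Amt had opposite signs in different gates, and their average over all pairs was 0.26 for Gldc (adjusted p = 0.579) and 0.92 for Amt (adjusted p = 0.0763). Gcsh was mixed without SSEA1, higher in 2 of 4 Thy1+SSEA1- and 3 of 4 Thy1-SSEA1- pairs, and lower in 3 of 3 Thy1-SSEA1+ pairs. On days 2, 4, 8 and 14 in Thy1+SSEA1- cells Gldc was at 7.65, 0.969, 3.14 and 3.29 FPKM with Dppa2/4, against 0.933, 0.407, 0.375 and 0.856 FPKM in control. The arms did not overlap, and the lowest Dppa2/4 value came from the day 4 library that went against its label. On days 2, 4, 8 and 11 in Thy1-SSEA1- cells it was at 1.42, 6.40, 6.28 and 3.47 FPKM with Dppa2/4, against 0.584, 1.66, 3.02 and 3.26 FPKM in control, higher in each pair. On days 8, 11 and 14 in Thy1-SSEA1+ cells the order was the reverse, at 15.2, 8.96 and 16.3 FPKM with Dppa2/4, against 28.0, 37.6 and 41.7 FPKM in control.

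Amt behaved likewise. On days 2, 4, 8 and 14 in Thy1+SSEA1- cells it was at 14.7, 3.39, 14.8 and 19.4 FPKM with Dppa2/4, against 0.729, 2.38, 1.57 and 4.16 FPKM in control. On days 2, 4, 8 and 11 in Thy1-SSEA1- cells it was at 3.95, 12.9, 20.0 and 11.7 FPKM with Dppa2/4, against 1.42, 1.67, 3.97 and 5.62 FPKM in control. On days 8, 11 and 14 in Thy1-SSEA1+ cells it was at 36.1, 24.6 and 34.5 FPKM with Dppa2/4, against 40.2, 47.0 and 55.8 FPKM in control. Dppa2/4 values were the higher ones in all 8 pairs without SSEA1 and the lower ones in all 3 Thy1-SSEA1+ pairs. The 8 pairs include day 4 Thy1+SSEA1-, whose Dppa2/4 library went against its label.

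The difference between gates was tested directly, as the Dppa2/4 effect in Thy1-SSEA1+ cells minus the mean of that in the gates without SSEA1, for which 2.33% of 16835 genes passed. It was -2.42 for Gldc (SE 0.37, adjusted p = 0.0106) and -2.41 for Amt (SE 0.51, adjusted p = 0.0392), and the other 8 members did not pass, at -1.31 to -0.48. The median of the members was -0.84, against 0.03 over all genes tested. Of the fixed markers, 5 of 8 pluripotency genes also passed, all negative, with a median of -1.85, and their part in the members' values was not tested. The difference was positive for 207 and negative for 185 of the genes that passed, and for 157 and 227 under quantile normalization. Gldc passed in 17 of 19 alternatives, with adjusted p from 0.00585 to 0.0675, the highest of them without the day 11 Thy1-SSEA1+ pair. Amt passed in 5 of 19, with adjusted p from 0.00697 to 0.203, and was lost without any 1 of 11 of the 13 pairs, while its estimate stayed between -2.80 and -2.21. Without the day 4 Thy1+SSEA1- pair the difference was also called for Mthfd2 (-1.03, adjusted p = 0.0355), whose adjusted p over alternatives ran from 0.0355 to 0.821. With days 8 to 14 only, an alternative added after seeing the data that gives all gates a similar span of days, it was -2.30 for Gldc (adjusted p = 0.0440) and -2.49 for Amt (adjusted p = 0.0425).

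Gate by gate, the Dppa2/4 effect in Thy1+SSEA1- cells was 1.36 for Gldc (SE 0.28, adjusted p = 0.0367) and 2.04 for Amt (SE 0.38, adjusted p = 0.0314), both higher in 4 of 4 pairs, with 3.77% of genes passing, 2.9% as higher. Gldc lost that call in 10 of 19 alternatives and Amt in 7 of 19, with adjusted p from 0.00528 to 0.190 for Gldc and from 0.00117 to 0.160 for Amt, the highest in each case without the day 2 Thy1+SSEA1- pair. Without the day 4 pair, whose Dppa2/4 library went against its label, 1652 genes passed in place of 635 and the effects were 1.65 for Gldc (SE 0.28, adjusted p = 0.00528) and 2.60 for Amt (SE 0.30, 0.00117). Mthfd2 was then also called, at 0.86 (SE 0.19, adjusted p = 0.0165), against 0.44 (adjusted p = 0.445) with all pairs. The other 7 members ran from -0.74 for Shmt1 to 0.28 for Shmt2 with all pairs and did not pass, although with days 8 to 14 only Tdh did (-1.94, adjusted p = 0.0399).

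In Thy1-SSEA1- cells, where 1.19% of genes passed, 0 of 10 members did with limma. Of the members, 5 were at an unadjusted p under 0.05, a level for which the share of all genes is not given here. The effects were 0.75 for Gldc (adjusted p = 0.173) and 1.61 for Amt (adjusted p = 0.0619, 0.00906 to 0.250 over alternatives). Shmt1 was at -1.33 (adjusted p = 0.0879), Tdh at -1.13 (0.428), Mthfd1 at -0.71 (0.170) and Mthfd2 at 0.67 (0.206), while Mthfd1l, Shmt2, Gcsh and Phgdh lay between -0.27 and 0.09. Without the day 4 Thy1+SSEA1- pair, which enters through the shared estimate of spread, Amt and Mthfd2 passed here, at adjusted p = 0.00906 and 0.0407. With days 8 to 14 only, Tdh passed at -2.26 (adjusted p = 0.0285).

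In Thy1-SSEA1+ cells, with 14.8% of genes passing, 9.25% as higher and 5.52% as lower, Shmt1 fell by 1.90 (SE 0.43, adjusted p = 0.0162), Gldc by 1.37 (SE 0.32, 0.0173) and Mthfd1l by 0.85 (SE 0.18, 0.0110), each lower in 3 of 3 pairs. Without the day 11 Thy1-SSEA1+ pair these 3 were at adjusted p = 0.137, 0.152 and 0.104, and without the day 14 pair Shmt1 and Gldc were at 0.0595 and 0.0516. The other 7 members did not pass: Tdh was at -2.03 (SE 0.79, adjusted p = 0.107), Mthfd1 at -0.96 (0.0539), Gcsh at -0.80 (0.0612), Amt at -0.58 (0.399) and Mthfd2 at -0.26 (0.602), each lower in 3 of 3 pairs, and Phgdh at -0.70 (0.295) and Shmt2 at -0.44 (0.356), lower in 2 of 3. Some of these were called under alternatives, Tdh in 2 of 20 (adjusted p down to 0.00927), Mthfd1 in 2 of 19 (down to 0.00609) and Gcsh in 4 of 19 (down to 0.0317), and without the day 4 Thy1+SSEA1- pair Tdh was at 0.0334 and Gcsh at 0.0317. In GFP+ cells, where 0.0178% of genes passed, 0 of 10 members did with limma, and effects ran from -0.79 for Shmt1 to 0.00 for Mthfd2. There 1 member had an unadjusted p under 0.05, again without a share of all genes beside it.

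Of the pluripotency, fibroblast and proliferation markers, some were called between arms in Thy1-SSEA1+ cells alone. In that gate the pluripotency sum was 259 to 888 FPKM with Dppa2/4 and 847 to 1859 FPKM in control, with 6 of 8 markers lower, beside 5.52% of all genes. The proliferation sum was 753 to 1261 FPKM with Dppa2/4 and 1024 to 1594 FPKM in control, with 0 of 8 called. Of the genes tested from the immune and endothelial lists, 0 of 2 and 1 of 2 passed there, beside 14.8% of all genes. In Thy1+SSEA1- cells the fibroblast sum was 663 to 1831 FPKM with Dppa2/4 and 2012 to 2527 FPKM in control, but 0 of 8 fibroblast and 0 of 8 pluripotency markers passed there with limma, with 5 of each at an unadjusted p under 0.05. The part of these markers in the members' values was not tested.

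The rtTA-MEF pair shows the same genes without the OSKM allele by its genotype label, although its descriptions name OSKM-rtTA cells. It is 1 library against 1 and was therefore given no test. Dppa2 was at 4443 FPKM in the Dppa2/4 library and 1.53 FPKM in the control one. Gldc was at 6.58 FPKM with Dppa2/4 and 0.641 FPKM in control, which is 10.3-fold, and Amt was at 5.70 FPKM and 0.704 FPKM in the same order, which is 8.10-fold. Both passed a change of at least 4-fold with 5 FPKM or more in the higher library, which 9.06% of 10470 genes did in either direction, 7.56% upwards and 1.5% downwards. The other 8 members did not, at 0.426-fold for Tdh, 0.873-fold for Mthfd1l and 1.40-fold to 2.03-fold for the rest.

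Thy1+SSEA1+ cells were sampled in the Dppa2/4 arm alone. On days 2 and 4 Gldc was at 10.3 and 9.27 FPKM there, and Amt at 15.2 and 17.9 FPKM. The highest control values without SSEA1 were 3.26 FPKM of Gldc and 5.62 FPKM of Amt, but those libraries differ in both arm and gate. In Dppa2/4 libraries without SSEA1 the highest values were 7.65 FPKM of Gldc and 20.0 FPKM of Amt, so Amt lay within the range of its own arm. Tdh was at most 1.25e-05 FPKM in both libraries, and its second row Tdh.1 was at 0.890 and 1.16 FPKM. Phgdh was at 193 and 163 FPKM and Gcsh at 208 and 123 FPKM.

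Change over days was tested within the gates without SSEA1. In Thy1-SSEA1- cells, where 2.77% of 14995 genes changed per day, Mthfd2 changed by -0.13 log2 units per day (SE 0.03, adjusted p = 0.0436), at 48.4, 40.1, 24.9, 18.9 and 22.2 FPKM on days 2, 4, 8, 11 and 14 with Dppa2/4, against 43.0, 18.7, 15.8 and 10.3 FPKM on days 2, 4, 8 and 11 in control. The values were highest on day 2 in both arms. That call was lost in 10 of 14 alternatives, with adjusted p of 0.0377 to 0.240, the highest of them without day 2. The other 9 members did not pass, with Phgdh at -0.14 per day (adjusted p = 0.0854). In Thy1+SSEA1- cells 2.1% of 14742 genes passed, 1.3% upwards and 0.8% downwards (192 higher and 118 lower, or 93 and 127 under quantile normalization) and 0 of 10 members did with limma. Of the members, 3 were at an unadjusted p under 0.05, as were 3756 of the 14742 genes. Shmt1 came nearest to the adjusted threshold, at -0.15 per day (adjusted p = 0.0501), then Mthfd1 at -0.08 (adjusted p = 0.0602). Both passed in 2 of 13 alternatives, at adjusted p down to 0.0222 for Shmt1 and 0.0164 for Mthfd1. Without the Dppa2/4 day 4 library, which went against its label, 2769 genes passed in place of 310, among them Mthfd2 (-0.18 per day, adjusted p = 0.0146), Mthfd1 (-0.09, 0.0164), Shmt1 (-0.16, 0.0222), Gcsh (-0.13, 0.0225) and Phgdh (-0.15, 0.0271). With any other single library left out, 0 to 2 genes passed with limma, and 1984 to 3609 had an unadjusted p under 0.05 where none did.

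**Figure D4:**
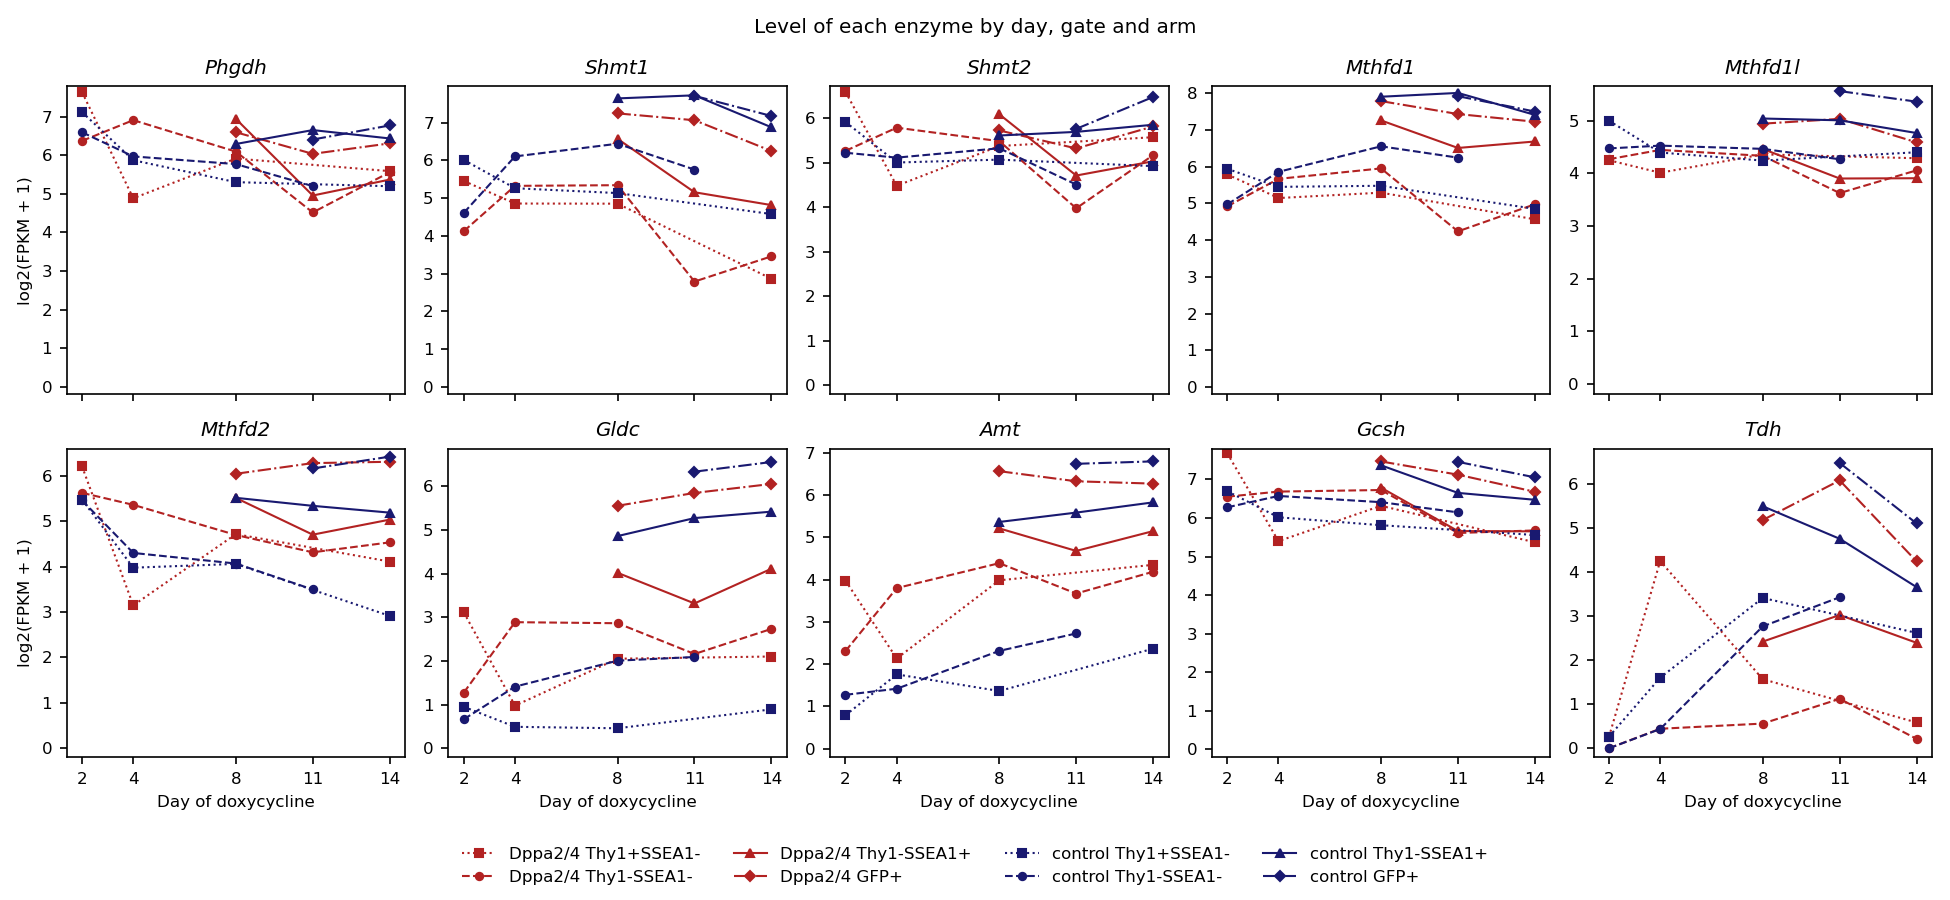
Level of each gene as log2(FPKM + 1) by day of doxycycline, with Dppa2/4 in red, control in dark blue and a line style per gate. Mthfd2 declines over days in Thy1-SSEA1- cells, with 43.0 FPKM on day 2 and 10.3 FPKM on day 11 in control, while control Tdh there is at 9.82 FPKM on day 11.

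Other genes of the pathway were read from lists that hold no member, beside the 15.6% of all genes that were higher with Dppa2/4 and the 7.75% that were lower. Of 7 enzymes of folate-using nucleotide synthesis, 5 fell with Dppa2/4 over the 13 pairs and 0 rose, with a median of -0.45, among them Adsl, an enzyme of purine synthesis (-0.62, adjusted p = 0.00350), and Gart, which takes up folate-bound formyl groups in that path (-0.56, adjusted p = 0.0336). Of 8 tested methionine cycle genes 1 rose and 2 fell: Gnmt, a glycine methyltransferase, rose by 1.75 (adjusted p = 0.00125, 13 of 13 pairs) and Ahcy, which clears S-adenosylhomocysteine, fell by 0.49 (adjusted p = 0.00463). Of 13 tested folate enzymes and carriers Mthfs rose by 0.36 (adjusted p = 0.00474) and Fpgs, which adds glutamate tails to folate, fell by 0.67 (adjusted p = 0.00455). Of 5 tested serine and threonine partner enzymes 1 passed, Dld, the L-protein of glycine cleavage, at 0.30 (adjusted p = 0.0387), and 0 of 6 amino acid carriers did.

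Across gates, where 9.55% of all genes were higher in Thy1-SSEA1+ than in Thy1-SSEA1- cells and 12.4% lower, 5 of 7 nucleotide synthesis genes were higher and 0 lower, led by Pfas (1.23, adjusted p = 0.00709) and Gart (1.09, 0.00617). Of 8 tested methionine cycle genes 4 were higher, led by Cbs (1.56, 0.00775) and Cth (0.87, 0.0359), which convert homocysteine to cysteine. Of the other lists, 1 of 5 serine and threonine partner enzymes, 2 of 13 folate enzymes and carriers and 1 of 6 amino acid carriers were higher, and 2 of the folate list were lower. In GFP+ against Thy1-SSEA1+ cells, with 19.5% of all genes higher and 25.9% lower, 6 of 7 nucleotide synthesis genes were higher and 0 lower, led by Gart (1.20, adjusted p = 0.00847) and Ppat (0.90, 0.00742). Higher and lower were 3 and 1 of 5 partner enzymes, 5 and 1 of 13 folate enzymes and carriers, 2 and 0 of 8 methionine cycle genes and 3 and 1 of 6 amino acid carriers. Psat1 (0.82, 0.00805) and Psph (0.65, 0.0409), which complete serine synthesis after Phgdh, were higher in GFP+ cells, as were the folate receptor Folr1 (1.72, 0.00971) and the amino acid carriers Slc7a5 (1.25, 0.00500) and Slc1a5 (1.11, 0.0140), whereas Ggh, which trims folate polyglutamates, fell by 1.51 (0.00111). The lower partner enzyme was Dld and the lower carrier Slc1a4 (-0.80, adjusted p = 0.0385), both named after their values were seen.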

How the data were processed

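PolyA RNA was sequenced from MEFs of 33 samples. Values are FPKM, which the authors deposited as one table. Per the submitters' processing notes TopHat2 and Cuffdiff were used with mm10, with no version given. Of 33 value columns 32 were matched to samples by name and 1, of no sample, was not used; the control day 11 Thy1+SSEA1- library was not analysed here. The rtTA-MEF columns name arm and day only and were matched because every other sample of that arm and day had a column with its full title. FPKM was used as deposited, and depth was estimated from the smallest FPKM steps of 2001 genes of at least 2000 bases, since read totals are not given in the sources used here.

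Tests used limma 3.58.1 in R 4.3.3 (lmFit, eBayes with trend, two-sided) on log2(FPKM + 1), so fold changes of low genes are understated. A gene was tested if 2 or more libraries of the fit had it at 1 FPKM or above, and p-values were adjusted over all genes tested by the Benjamini-Hochberg method. All 10 members passed this filter in every comparison. Dppa2/4 against control used day and gate as a block, comparisons of gates used arm and day as a block, and slopes on day used arm as a term. All 10 members are named, with the values of each that passed in a comparison and values, ranges or counts of the others. Of each pathway list, at most the 2 genes with the largest change past the threshold are named, and for Tdh and Gldc the 5 genes with the highest correlation. The members and lists were chosen with earlier results of these data known. The alternatives changed the filter (none, or a mean of 5 FPKM or more), the pseudocount (0.1), the scaling (quantile normalization) or the block (none), or left out day 2 or each pair or library. Promoters are RefSeq sequences of GRCm38.p6, found for 9 of 10 members.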

Additional observations from a re-analysis of the deposited data

Results flagged for a closer look

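Gldc and Amt were flagged because their Dppa2/4 effect differed between gates in a test of that difference, at -2.42 for Gldc (adjusted p = 0.0106 with limma) and -2.41 for Amt (adjusted p = 0.0392) on the log2(FPKM + 1) scale. This was not particular to them, since 5 of 8 pluripotency markers passed the same test in the same direction, beside 2.33% of all genes. Gldc kept the call in 17 of 19 alternatives, whereas Amt lost it in 14 of 19, with adjusted p from 0.00697 to 0.203. Both were higher with Dppa2/4 in 8 of 8 pairs without SSEA1 and lower in 3 of 3 Thy1-SSEA1+ pairs. The 8 pairs include day 4 Thy1+SSEA1-, whose Dppa2/4 library had only 0.354 FPKM of Dppa2 and went against its label.

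The same enzymes had effects of opposite direction in GFP+ cells and in the gates without SSEA1. The GFP+ effect was -0.49 for Gldc (adjusted p = 0.768 with limma) and -0.47 for Amt (0.858), lower with Dppa2/4 in 2 of 2 pairs. The median of the 10 members there was -0.48, with a range of -0.79 for Shmt1 to 0.00 for Mthfd2. The effects in Thy1+SSEA1- and Thy1-SSEA1- cells were 1.36 and 0.75 for Gldc and 2.04 and 1.61 for Amt, higher in 4 of 4 pairs of each gate. The difference between GFP+ cells and these gates was not tested.

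The rtTA-MEF pair lay outside the main comparison and lacks the OSKM allele by its genotype label, although its descriptions name OSKM-rtTA cells. It had Gldc at 6.58 FPKM in the Dppa2/4 library, against 0.641 FPKM in control, and Amt at 5.70 FPKM, against 0.704 FPKM in control.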

How the results depend on the processing

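Every arm, day and gate had 1 library, so each p-value rests on the spread between days and gates, and a gate effect rests on 2 to 4 pairs. Over the members' results and alternatives, 1600 values kept direction and side of the threshold, 67 lost the call, 31 gained it and 37 changed sign. Causes were not tested, except that fits without a pair or with fewer genes hold fewer data. Pairs of the same day and gate, or of the same arm and day, were the blocks of the fits, and the labels give no replicate number to use as another.

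Of genes called, Dppa2/4 against control had 3933, with 2263 at a mean FPKM of at least 5, 805 without the block and 2987 to 4214 with each pair left out. The difference of that effect between gates had 392, with 214 at a mean FPKM of at least 5, 42 without the block, 60 on days 8 to 14, 651 without the Dppa2/4 day 4 Thy1+SSEA1- library, 183 without the day 11 GFP+ control library and 82 to 699 with each pair left out. Thy1-SSEA1- against Thy1+SSEA1- had 4, with 21 at a pseudocount of 0.1, 0 without a filter (limma, 2270 at an unadjusted p under 0.05), 8 at a mean FPKM of at least 5, 8 after quantile normalization (6 higher and 2 lower), 15 without the block, 1 without the Dppa2/4 day 4 Thy1+SSEA1- library and 0 to 7 with each pair left out (1249 to 1435 at an unadjusted p under 0.05 where it was 0). Thy1-SSEA1+ against Thy1-SSEA1- had 3340, with 1256 to 3307 when each pair was left out, and GFP+ against Thy1-SSEA1+ had 6963, with 4548 to 6408. Change per day in Thy1+SSEA1- cells had 310, with 0 without a filter (limma, 4511 unadjusted), 631 at a mean FPKM of at least 5, 0 without day 2 (3668 unadjusted), 2769 without the Dppa2/4 day 4 library and 0 to 2769 with each library left out (1984 to 3609 unadjusted where it was 0). In Thy1-SSEA1- cells it had 415, with 228 without a filter, 219 at a mean FPKM of at least 5, 7 without day 2 and 26 to 330 with each library left out.

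None of the sign changes below was of a value past the threshold. With days 8 to 14 only, signs changed for Gldc over all pairs (-0.15), for Mthfd1l in Thy1+SSEA1- cells (0.00214), for Shmt2 (-0.19), Gcsh (-0.11) and Phgdh (-0.18) in Thy1-SSEA1- cells and for the difference between gates of Tdh (0.0758). Without the day 11 GFP+ control library the GFP+ effect of Mthfd2 was -0.11. Without the Dppa2/4 day 4 library, Thy1-SSEA1- against Thy1+SSEA1- was -0.0686 for Mthfd1l, -0.0556 for Amt and -0.18 for Phgdh. The slope of Gldc in Thy1+SSEA1- cells was 0.000851 at a pseudocount of 0.1, and without day 2 slopes there were 0.0135 for Mthfd1l, 0.0469 for Shmt2, -0.13 for Tdh and 0.0733 for Gldc, and -0.0582 for Mthfd1 in Thy1-SSEA1- cells.

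With each pair or library left out, signs changed for the Dppa2/4 effect of Shmt2 over all pairs (-0.14 to 0.000287), of Tdh (-1.30 to 0.27), Gcsh (-0.10 to 0.43) and Phgdh (-0.0250 to 0.51) in Thy1+SSEA1- cells, of Shmt2 (-0.11 to 0.29), Gcsh (-0.0486 to 0.23) and Phgdh (-0.19 to 0.35) in Thy1-SSEA1- cells and of Mthfd2 (-0.11 to 0.12) in GFP+ cells. In Thy1-SSEA1- against Thy1+SSEA1- they changed for Mthfd1l (-0.0686 to 0.0916), Shmt1 (-0.0572 to 0.39), Shmt2 (-0.32 to 0.11), Amt (-0.0556 to 0.50) and Phgdh (-0.18 to 0.37). Slopes in Thy1+SSEA1- cells changed sign for Mthfd1l (-0.0255 to 0.00906), Shmt2 (-0.0751 to 0.00120), Tdh (-0.0309 to 0.17) and Gldc (-0.0359 to 0.0427), and in Thy1-SSEA1- cells for Mthfd1 (-0.0242 to 0.0453).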
